A study of Mus musculus with 16 samples.

Results

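Ephrins and Eph receptors were followed in cultured mouse cells of the coronal suture, where the frontal bone meets the parietal bone. The list held 10 genes, given by name: the ephrins Efnb1, Efnb2, Efna2, Efna4 and Efna5 and the receptors Epha3, Epha4, Epha7, Ephb2 and Ephb3. Each was read by its brightest probe set with 1 gene symbol, which gave 9 of the 10 genes among 22180 in all. Ephb2 was not analysed here. All 9 lay above the filter on dim probe sets, a mean log2 level of 3.91 over the arrays, so all 9 were among the 13453 genes tested.

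The RNA came from C57BL6 mice that were either Twist1+/- or wild type, and was hybridised to 16 Affymetrix whole-transcript arrays. Twist1 encodes a basic helix-loop-helix factor of mesenchymal cells, and loss of a copy causes early closure of this suture. The groups were Twist1+/- cells with thyroxine at 7 days, in control medium at 7 days, with thyroxine at 3 days and in control medium at 3 days, and wild-type cells under the same 4 conditions. Thyroxine, a hormone of the thyroid gland, was added to DMEM (log10 of its molar concentration, -6), and control cells had DMEM without added thyroxine. The labels give 10% serum for every array. Each group had 1 array of female and 1 array of male cells. Cells came from 2 litters and were kept apart by genotype and sex, so the labels tell 4 cultures apart, 1 for each genotype and sex. The ages of the mice, the part of Twist1 altered in the mutant and the number of animals behind a culture are not stated in the labels, nor is pooling of wells. P-values therefore measure the spread between arrays, and no test here measures the spread between animals.

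Ephrins are ligands held on the cell surface, the A type by a lipid anchor and the B type by a membrane-spanning segment. They bind Eph receptor tyrosine kinases on neighbouring cells and signal in both directions, which keeps cell populations apart at tissue boundaries. A-type receptors bind mainly A-type ephrins and B-type receptors mainly B-type ephrins, while Epha4 binds both. In the mouse coronal suture Efna2, Efna4 and Epha4 are known from the boundary between neural crest and mesoderm cells and from work on Twist1 mutants. In humans EFNB1 is mutated in craniofrontonasal syndrome, and variants of EFNA4 have been found in coronal synostosis.

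Promoters are shown for 2 genes on which the results below turn. Epha3 set 1 culture apart, and Efnb2 was lower after longer culture in all but that culture. Each line is the 250 bases before the annotated start, from RefSeq, on the strand of the gene. Capitals mark the letters CANNTG, the E-box that helix-loop-helix factors such as Twist1 can bind. This motif reads the same way on both strands.
Epha3: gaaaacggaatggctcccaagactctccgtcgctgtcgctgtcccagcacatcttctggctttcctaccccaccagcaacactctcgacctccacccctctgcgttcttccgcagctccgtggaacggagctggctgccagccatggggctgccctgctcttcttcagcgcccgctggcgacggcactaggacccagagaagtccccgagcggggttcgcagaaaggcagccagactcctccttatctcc
Efnb2: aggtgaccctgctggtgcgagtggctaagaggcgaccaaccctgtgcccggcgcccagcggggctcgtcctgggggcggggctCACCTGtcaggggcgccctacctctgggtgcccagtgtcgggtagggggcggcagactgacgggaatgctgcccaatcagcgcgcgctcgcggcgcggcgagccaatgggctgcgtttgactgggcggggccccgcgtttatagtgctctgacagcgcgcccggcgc
In build GRCm38.p6 these windows are chr16:63864176-63864425 on the minus strand for Epha3 and chr8:8661243-8661492 on the minus strand for Efnb2. The Epha3 window held no match. The Efnb2 window held 1, CACCTG, which begins 167 bases before the start. Among the windows of the 10 listed genes, those of Ephb2 and Ephb3 also held matches, and those of the remaining genes held none. Of 32851 promoter windows of this length, 66.2% held at least 1 match. The letters AGGTCA, the half-site of many nuclear receptors including those of thyroid hormone, were searched on both strands and were in none of the windows of the 10 listed genes, against 14% of all windows. A match in letters is not a measured binding site.

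The arrays as a whole set the frame for these genes. The wild-type male culture stood apart from the others in the series. Of 13 suture and skull mesenchyme markers with a probe set, all above the filter, the mean log2 level lay between 8.07 and 8.27 on its 4 arrays and between 9.0 and 9.37 on the other 12. The log2 of their summed level lay between 13.25 and 13.43 in that culture and between 14.06 and 14.51 in the others. Msx2 (6.97 there and 6.65 in the others) and Twist2 (4.12 and 4.10) were not lower, while all the other markers of this list were. The 15 macrophage and osteoclast markers averaged 9.57 at 3 days in the wild-type male culture and 8.04 to 8.62 in the other 3 cultures, while at 7 days they averaged 9.73 and 9.62 to 9.77. The log2 of their summed level lay between 14.38 and 14.77 in that culture and between 12.77 and 14.6 in the others, and none of these markers was below the filter. Ctsk and Acp5 of this list went the other way, at 7.0 and 5.2 in that culture and 7.94 and 5.455 in the others. All the other markers of the list had a higher mean there. Of 7 osteoblast markers, Sp7, Ibsp, Bglap, Dmp1 and Phex were below the filter, and of 7 endothelial markers Tek, Tie1, Emcn and Erg were. Twist1 lay between 6.51 and 7.55 on the Twist1+/- arrays and between 6.07 and 7.70 on the wild-type arrays, which does not check the genotype labels. Klf9, a direct target of thyroid hormone receptors, was higher by 0.56 ± 0.06 (SE, n = 8 pairs) with thyroxine (adjusted p = 0.00458, limma). In bulk RNA, fewer cells of a type and less RNA per cell cannot be told apart.

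**Figure D1:**
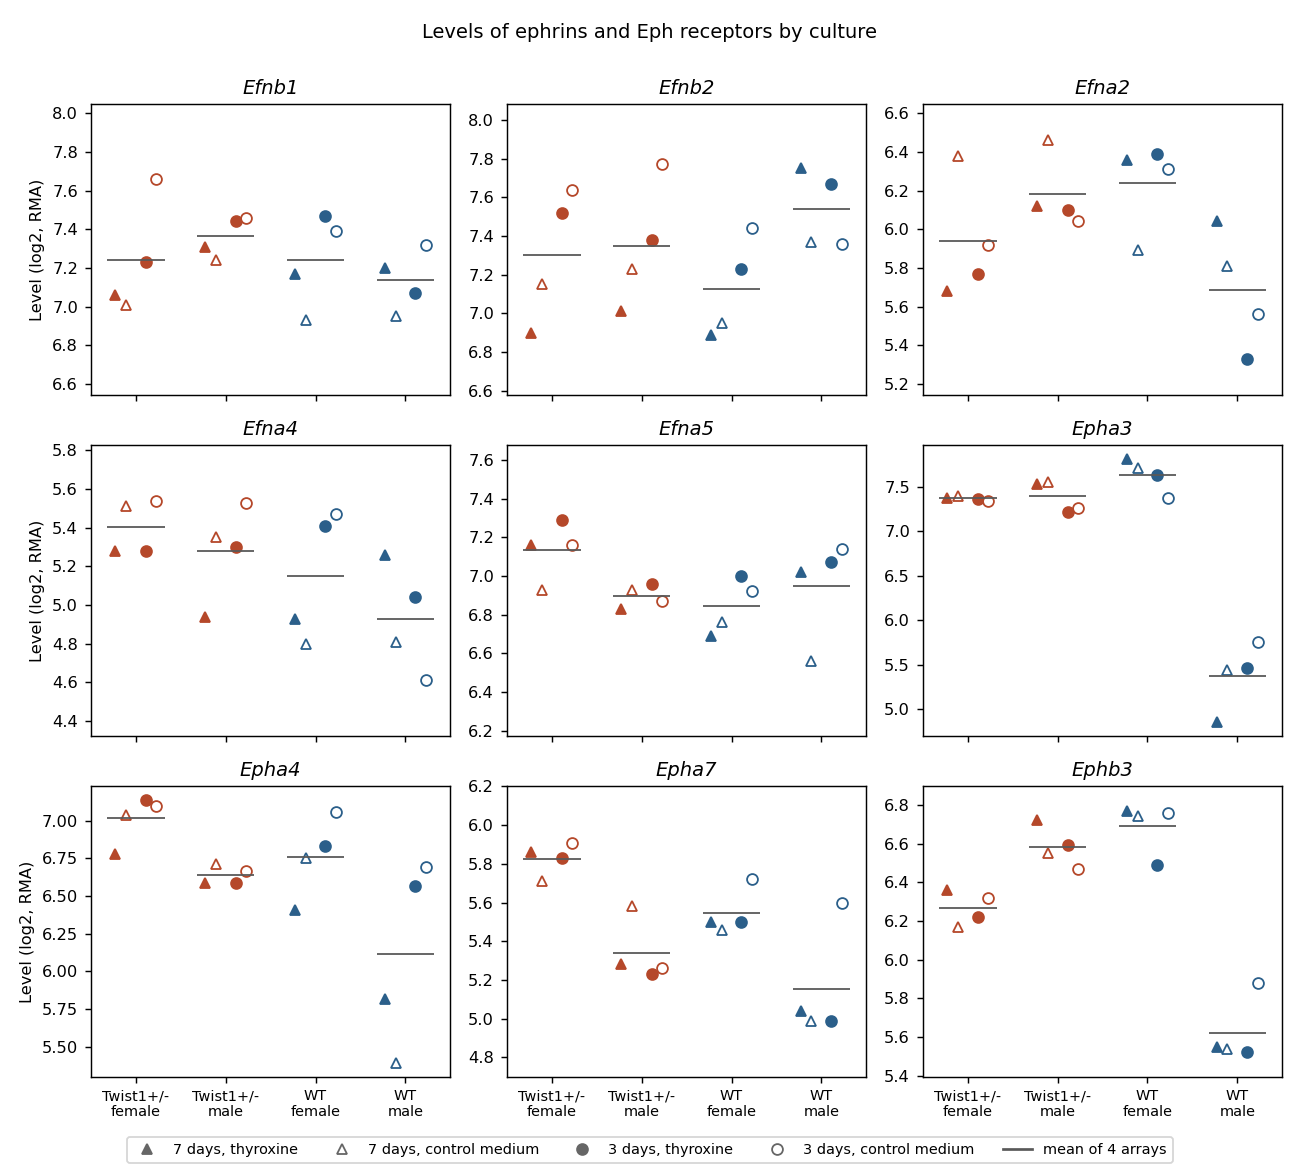
Log2 levels (RMA) of the 9 genes on each of the 16 arrays, in columns by culture. Triangles are 7 days and circles 3 days, filled symbols are thyroxine and open symbols control medium, and the line is the mean of the 4 arrays of a culture. Epha3 and Ephb3 lie lower on all 4 wild-type male arrays than on the other 12.

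The question of the cultures comes first, because it bears on every later comparison. Epha3, a receptor for A-type ephrins with high affinity for ephrin-A5, was lower in the wild-type male culture than in the other 3, with a log2 difference of -2.09. Ephb3, a receptor for B-type ephrins, was lower there with a difference of -0.89 and Epha4 with one of -0.69. Epha7, another receptor for A-type ephrins, was higher in the Twist1+/- female culture than in the Twist1+/- male culture. These 4 receptors passed the test for any difference among the 4 cultures, as did 19.7% of all genes, and none of the 5 ephrins did. Efna1, an ephrin outside the list, passed it too.

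Epha3 had 4.85 with thyroxine and 5.44 in control medium at 7 days, and 5.46 and 5.75 at 3 days, in the wild-type male culture. On the other 12 arrays its lowest, median and highest levels were 7.22, 7.39 and 7.82. The groups did not overlap, and the difference at the same day and medium ran from -2.73 to -1.58. Within the remaining cultures Epha3 varied little, with 7.37 ± 0.03 (SD, n = 4 arrays) in Twist1+/- female, 7.40 ± 0.18 in Twist1+/- male and 7.64 ± 0.19 in wild-type female cells. Its culture test gave F = 93.1 and an adjusted p of 1.37e-07 (limma, Benjamini-Hochberg adjustment). A difference of that size or larger, in either direction, was found for 0.186% of the tested genes.

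Ephb3 had 5.55 with thyroxine and 5.54 in control medium at 7 days, and 5.52 and 5.88 at 3 days, in the wild-type male culture. On the other 12 arrays it ranged from 6.17 to 6.77 with a median of 6.52. Here too the groups did not overlap. Culture means were 6.27 ± 0.09 in Twist1+/- female, 6.58 ± 0.10 in Twist1+/- male, 6.69 ± 0.13 in wild-type female and 5.62 ± 0.17 in wild-type male cells (SD, n = 4 arrays), and the ranges of the Twist1+/- male and wild-type female cultures overlapped. Its culture test gave an adjusted p of 4.68e-06 (limma). With the wild-type male culture left out it still passed, at an adjusted p of 0.0350 over 3 cultures.

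Epha4, which binds ephrins of both types, had 5.82 with thyroxine and 5.39 in control medium at 7 days, and 6.57 and 6.69 at 3 days, in the wild-type male culture. On the other 12 arrays it ranged from 6.41 to 7.14 with a median of 6.77. The 2 arrays at 7 days lay below all others, while those at 3 days lay within the range of the other cultures. Among those cultures Twist1+/- female cells were highest, at 7.02 ± 0.16 (SD, n = 4 arrays), against 6.64 ± 0.06 in Twist1+/- male and 6.76 ± 0.27 in wild-type female cells. The culture test gave an adjusted p of 0.00936 (limma).

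Epha7 had 5.86 and 5.71 at 7 days with thyroxine and in control medium, and 5.83 and 5.91 at 3 days, in the Twist1+/- female culture. In the Twist1+/- male culture the same arrays had 5.28, 5.58, 5.23 and 5.26, in the wild-type female culture 5.5, 5.46, 5.5 and 5.72, and in the wild-type male culture 5.04, 4.99, 4.99 and 5.60. The Twist1+/- female and male cultures did not overlap, whereas the 2 wild-type cultures did. The culture test gave an adjusted p of 0.00562 (limma). Epha3, Epha4 and Epha7 lost their calls when the wild-type male culture was left out, with adjusted p of 0.140, 0.0902 and 0.0609, while each of the 4 receptors passed in 16 of 16 refits that left out 1 array.

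The ephrins gave smaller values in this test, with adjusted p of 0.0822 for Efna2, 0.151 for Efna5, 0.186 for Efnb2, 0.212 for Efna4 and 0.355 for Efnb1 (limma). Efna2, an A-type ephrin, averaged 5.94 ± 0.31 in Twist1+/- female, 6.18 ± 0.19 in Twist1+/- male, 6.24 ± 0.23 in wild-type female and 5.69 ± 0.31 in wild-type male cells (SD, n = 4 arrays), and their ranges overlapped, with the male cultures meeting at 6.04. Leaving out a single array brought Efna2 past the threshold in 3 of 16 refits and Efna4 and Efnb2 in 1 of 16 each. Efna2 passed without the Twist1+/- female control array at 7 days (adjusted p = 0.0473), the wild-type female control array at 7 days (0.00835) or the wild-type male thyroxine array at 7 days (0.0287). Efna4 passed without that last array (0.0376) and Efnb2 without the wild-type male control array at 3 days (0.0140). Efnb1 lies on the X chromosome, and its means were 7.24 ± 0.30 and 7.36 ± 0.11 in Twist1+/- female and male cells and 7.24 ± 0.24 and 7.14 ± 0.16 in wild-type female and male cells, so the sexes overlapped in both genotypes.

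In all, 4 of the 9 genes passed the culture test, against 19.7% of all genes, and 5 of the 9 had an unadjusted p under 0.05, against 33.2%. Of the 9, Epha3 and Ephb3 had all 4 wild-type male arrays below the other 12, as did 5.29% of all genes, and 0 had them all above, as did 2.26%. The test compares these 4 cultures with the spread between their arrays and does not separate genotype, sex or litter. The part that the lower mean of the mesenchyme markers in the wild-type male culture has in these differences was not tested.

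Other family members varied with the cultures as well. Of the 12 further ephrin and Eph genes, all 12 had a probe set and 9 lay above the filter, while Epha5, Epha6 and Ephb1 did not. The culture test called 3 of these 9, beside 19.7% of all genes. Ephb4, the receptor of ephrin-B2, was 6.34 ± 0.23 in the wild-type male culture and 6.99 ± 0.15 on the other 12 arrays (SD), without overlap (adjusted p = 0.000173, limma). Epha2, which binds A-type ephrins, went the other way, with 7.86 ± 0.14 in the wild-type male culture and 6.90 ± 0.44 on the others (adjusted p = 0.000143). Efna1, an A-type ephrin, was 5.08 ± 0.22 there and 5.51 ± 0.27 on the others (adjusted p = 0.0416). Efna3, Efnb3, Epha1, Epha8, Epha10 and Ephb6 gave adjusted p between 0.0620 and 0.854.

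**Figure D2:**
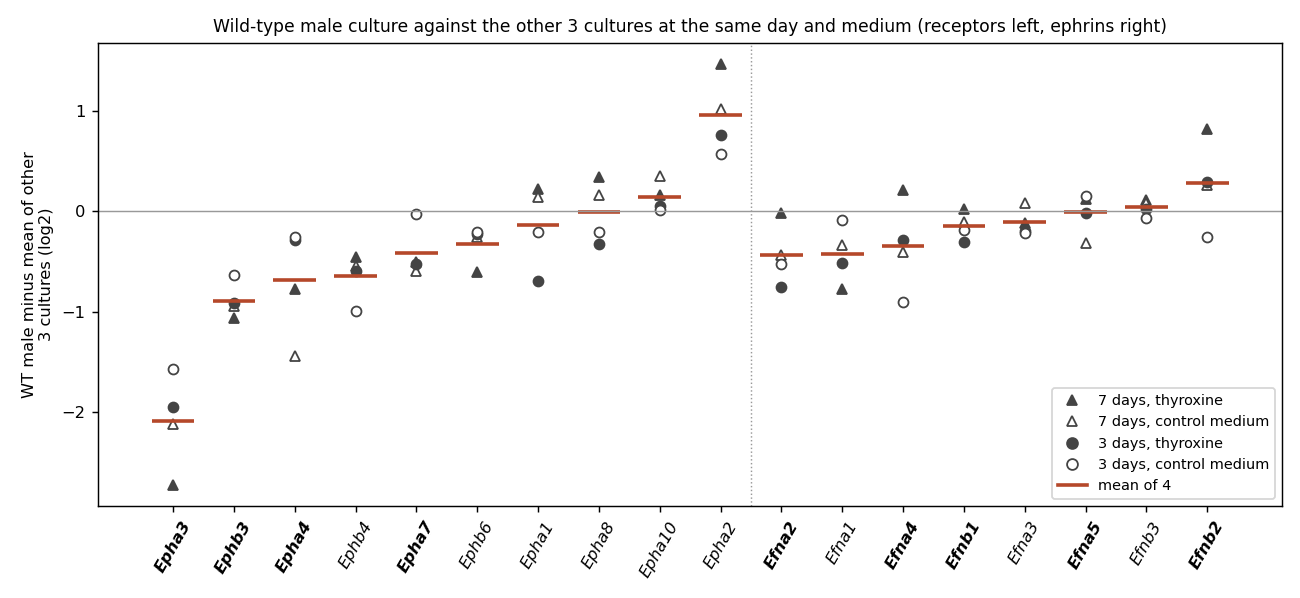
Log2 level of each wild-type male array minus the mean of the other 3 cultures at the same day and medium, for the 18 tested family genes, receptors on the left and ephrins on the right, with the listed genes in bold. Triangles are 7 days, circles 3 days, filled symbols thyroxine, open symbols control medium, and the line is the mean of the 4. The mean is -2.09 for Epha3, -0.89 for Ephb3 and 0.95 for Epha2.

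Among 34 tested signalling partners of 38 listed, 13 passed the culture test, beside 19.7% of all genes. The largest F values were those of Rasa1, a GTPase-activating protein for Ras, Rnd1, Abl2, a cytoplasmic tyrosine kinase, and Ptprf, a receptor tyrosine phosphatase. Rasa1 was higher in the wild-type male culture by 0.54, Rnd1 by 0.55 and Abl2 by 0.48, and Ptprf was lower with a difference of -0.62 (adjusted p from 0.000221 to 0.00187, limma).

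The second question was how these genes changed between 3 and 7 days of culture. Efnb2, a B-type ephrin and the ligand of Ephb4, fell in Twist1+/- cells by 0.51 ± 0.13 on the log2 scale (SE, adjusted p = 0.0242, limma). It was the only 1 of the 9 to pass there, against 14.6% of all genes, or 5.4% lower and 9.24% higher. At an unadjusted p under 0.05 there were 2 of the 9, against 29.1% of all genes. In wild-type cells 0 of the 9 passed, with 3 at an unadjusted p under 0.05, against 15 genes or 0.111% of all genes past the adjusted threshold and 16.4% at the unadjusted one. The median difference of the 9 was -0.10 in Twist1+/- cells and -0.19 in wild-type cells, beside -0.02 for all genes in each.

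Efnb2 had 6.90 and 7.15 with thyroxine and in control medium in Twist1+/- female cells at 7 days, and 7.01 and 7.23 in Twist1+/- male cells. At 3 days the same cells had 7.52, 7.64, 7.38 and 7.77. All 4 arrays at 7 days lay below the 4 at 3 days, as for 8.88% of all genes. In wild-type female cells Efnb2 had 6.89 and 6.95 with thyroxine and in control medium at 7 days, and 7.23 and 7.44 at 3 days. In wild-type male cells it had 7.75 and 7.37 at 7 days, and 7.67 and 7.36 at 3 days. It was thus lower at 7 days in 6 of 6 comparisons of the same culture and medium outside the wild-type male culture, as were 14% of all genes, and not lower in the 2 of that culture.

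Markers of other cells moved with the day as well. The 15 macrophage and osteoclast markers averaged 9.62 at 7 days against 8.04 at 3 days in Twist1+/- female cells, 9.77 against 8.62 in Twist1+/- male cells, 9.75 against 8.40 in wild-type female cells and 9.73 against 9.57 in wild-type male cells. The 6 smooth muscle and pericyte markers, all above the filter, averaged 7.90 at 7 days against 8.50 at 3 days in Twist1+/- female cells, 7.75 against 8.23 in Twist1+/- male cells, 7.55 against 8.31 in wild-type female cells and 8.15 against 8.45 in wild-type male cells. The macrophage list thus differed between days by more in the cultures where Efnb2 was lower than in the wild-type male culture, and the smooth muscle list was lower at 7 days in all 4. The 4 cartilage markers, with Acan and Col9a1 below the filter, averaged 5.45 against 5.86 in Twist1+/- female cells and 5.24 against 5.62 in Twist1+/- male cells. In wild-type female cells they averaged 5.39 against 5.655, and in wild-type male cells they were higher at 7 days, at 5.535 against 5.31. Their part in the day values of Efnb2, Efnb1, Epha4 and the other genes was not tested.

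In wild-type cells the Efnb2 difference was -0.19 ± 0.13 (SE, adjusted p = 0.530, limma), and the difference between genotypes in that change, -0.32 ± 0.19, did not pass either (adjusted p = 0.638). The wild-type female culture alone gave -0.42. The Twist1+/- call was lost when any 1 of 7 of the 8 Twist1+/- arrays was left out (differences from -0.59 to -0.42 and adjusted p up to 0.131 over all 16 refits). It held without the male thyroxine array at 3 days. It was also lost with no filter on dim probe sets and with no culture block, at adjusted p of 0.0515 and 0.0534.

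Efnb1, the other B-type ephrin, gave a difference of -0.29 ± 0.11 in Twist1+/- cells and -0.25 ± 0.11 in wild-type cells (SE) without passing (adjusted p = 0.0890 and 0.270, limma). At 7 days it had 7.06 and 7.01 with thyroxine and in control medium in Twist1+/- female cells and 7.31 and 7.24 in male cells, against 7.23, 7.66, 7.44 and 7.46 at 3 days. In wild-type cells it had 7.17 and 6.93 in female and 7.20 and 6.95 in male cells at 7 days, against 7.47, 7.39, 7.07 and 7.32 at 3 days. It was lower at 7 days in 7 of 8 comparisons of the same culture and medium. These held the 6 of 6 outside the wild-type male culture, as for 14% of all genes. In Twist1+/- cells it passed when each array was centred on its median (-0.36, adjusted p = 0.0227) and without the wild-type male culture (adjusted p = 0.0474).

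Epha4 had the largest difference of the 9 in wild-type cells, at -0.70 ± 0.15 (SE, adjusted p = 0.0802, limma). It was lower at 7 days in 4 of 4 comparisons, a count not taken over all genes. In wild-type female cells it had 6.41 and 6.75 with thyroxine and in control medium at 7 days, against 6.83 and 7.06 at 3 days. The differences in wild-type male cells, from the levels above, were larger, at -0.75 and -1.30. With the culture as a fixed block, which pairs the days of a culture, Epha4 passed in wild-type cells (adjusted p = 0.0284), and 513 genes passed in place of 15. It also passed without the wild-type female control array at 7 days (-0.94, adjusted p = 0.0222). In the wild-type female culture alone the difference was -0.37. In Twist1+/- cells Epha4 differed by -0.10 ± 0.15 (adjusted p = 0.729), and the genotypes' changes differed by 0.60 ± 0.22 without passing (adjusted p = 0.559). None of the 9 genes, and 0 of all genes (0%), passed the test of a different change between genotypes, with 1 of the 9 and 8.73% of all genes at an unadjusted p under 0.05.

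The remaining genes gave smaller or mixed values. Efna4, an A-type ephrin, was lower at 7 days in wild-type female cells, with 4.93 and 4.80 with thyroxine and in control medium against 5.41 and 5.47 at 3 days. In wild-type male cells it was 5.26 and 4.81 at 7 days, against 5.04 and 4.61 at 3 days, so the cultures went opposite ways. Over both wild-type cultures Efna4 did not pass, and the female culture alone gave -0.58. Efna2, Efna5, Epha3, Epha7 and Ephb3 had adjusted p from 0.499 to 0.905 in Twist1+/- cells and from 0.248 to 0.986 in wild-type cells.

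**Figure D3:**
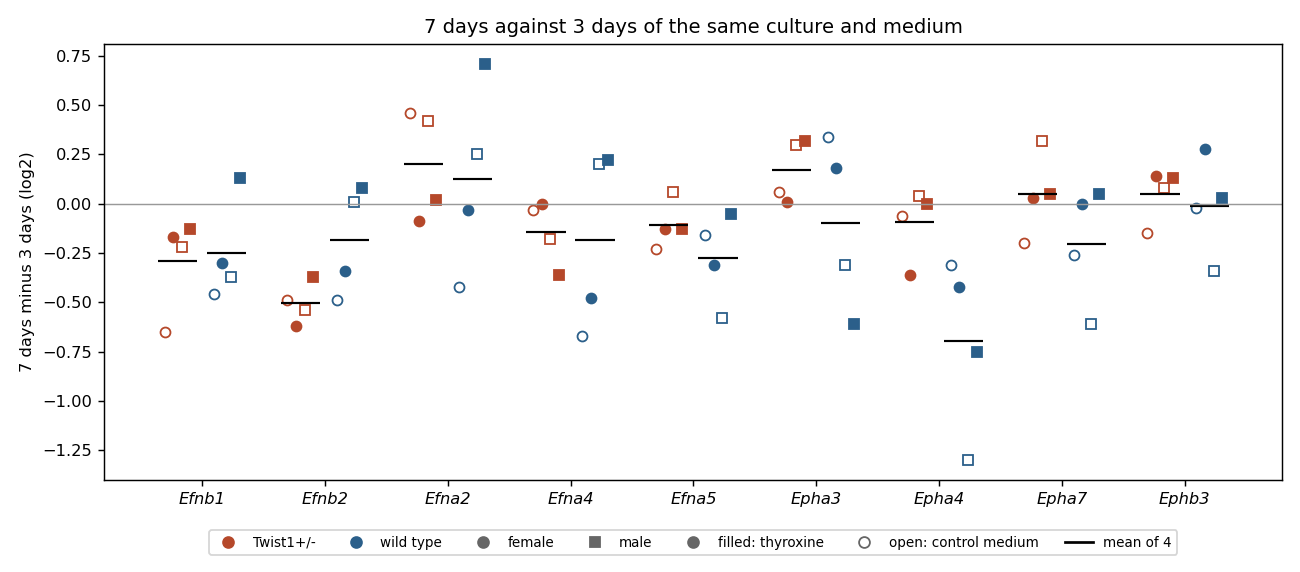
Difference of log2 level, 7 days minus 3 days, for arrays of the same culture and medium, for the 9 genes. Red is Twist1+/- and blue wild type, circles are female and squares male, filled symbols are thyroxine and open symbols control medium, and the line is the mean of 4. Efnb2 lies at or below -0.34 in 6 of 8 comparisons and at 0.01 and 0.08 in the wild-type male culture.

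Of the 9 further family genes, Epha1, an A-type receptor, passed in Twist1+/- cells. It averaged 5.88 ± 0.28 at 7 days and 6.57 ± 0.09 at 3 days (SD, n = 4 arrays), a fall of 0.69 ± 0.17 (SE, adjusted p = 0.0189, limma). In wild-type cells it averaged 5.54 ± 0.39 at 7 days and 6.15 ± 0.27 at 3 days (adjusted p = 0.117). Epha2 gave a difference of -0.59 ± 0.27 in Twist1+/- cells and -0.49 ± 0.27 in wild-type cells (SE) without passing (adjusted p = 0.167 and 0.391).

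Of 34 signalling partners, 4 rose and 2 fell in Twist1+/- cells and 0 passed in wild-type cells, beside 9.24% of all genes higher and 5.4% lower in Twist1+/- cells, so these counts lay near the share over all genes. Vav3, a guanine nucleotide exchange factor that Eph receptors engage, rose by 0.92 ± 0.14, with 5.26 ± 0.32 at 7 days against 4.34 ± 0.18 at 3 days (SD, n = 4 arrays, adjusted p = 0.00146, limma). Ptpro, a receptor tyrosine phosphatase that acts on Eph receptors, rose by 0.78 ± 0.12 (adjusted p = 0.00165). Ptprf fell by 0.74 ± 0.12 (adjusted p = 0.00196) and Kalrn by 0.39 ± 0.10 (adjusted p = 0.0190).

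The third question was whether thyroxine changed these genes. None of the 9 passed over the 8 pairs of a thyroxine and a control array of the same culture and day, and 0 of the 9 had an unadjusted p under 0.05. Among all genes 13 passed, or 0.0966%, and 6.13% had an unadjusted p under 0.05. The differences ran from -0.13 for Epha7 to 0.09 for Efna5, with standard errors from 0.06 to 0.09 and adjusted p from 0.856 to 0.998 (limma). The median of the 9 was -0.07, beside -0.02 for all genes.

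For 3 ephrins the responses of the genotypes differed at an unadjusted p under 0.05 without passing after adjustment, and the pairs of the genotypes lay wholly apart for Efna4 alone of these 3. Efna4 was lower with thyroxine in 4 of 4 Twist1+/- pairs and higher in 3 of 4 wild-type pairs. In Twist1+/- female cells it had 5.28 with thyroxine and 5.51 in control medium at 7 days, and 5.28 and 5.54 at 3 days. In Twist1+/- male cells it had 4.94 and 5.35 at 7 days, and 5.30 and 5.53 at 3 days. The wild-type levels are given above, with differences of 0.13 and -0.06 in the female pairs and 0.45 and 0.43 in the male pairs at 7 and 3 days. All 4 Twist1+/- differences were below 0, as for 8.1% of all genes, and lay below all 4 wild-type differences, as for 2.33% of all genes. The Twist1+/- minus wild-type response was -0.52 ± 0.17 (SE), which did not pass (adjusted p = 0.415, limma). With the wild-type male culture left out it was -0.32 (adjusted p = 0.999).

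Efnb2 had differences from -0.39 to -0.12 in the 4 Twist1+/- pairs, -0.06 and -0.21 in the wild-type female pairs and 0.38 and 0.31 in the wild-type male pairs at 7 and 3 days. It was therefore lower with thyroxine in 6 of 6 pairs outside the wild-type male culture, as were 2.02% of all genes, and higher in the 2 of that culture. The wild-type female pair at 3 days lay within the range of the Twist1+/- pairs. Over those 6 pairs the fit gave -0.19 (adjusted p = 0.920, limma). The genotypes' responses differed by -0.35 ± 0.14 (SE, adjusted p = 0.484). Leaving out the wild-type male culture made it -0.11 (adjusted p = 0.999).

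Efna2 had 5.68 with thyroxine and 6.38 in control medium at 7 days, and 5.77 and 5.92 at 3 days, in Twist1+/- female cells, and 6.12 and 6.46 at 7 days and 6.10 and 6.04 at 3 days in Twist1+/- male cells. In wild-type female cells it had 6.36 and 5.89 at 7 days and 6.39 and 6.31 at 3 days, and in wild-type male cells 6.04 and 5.81 at 7 days and 5.33 and 5.56 at 3 days. The pairs of the genotypes overlapped at 3 days and lay apart at 7 days. The responses differed by -0.42 ± 0.15 (SE, adjusted p = 0.441, limma).

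In all, 0 of the 9 passed this test, against 8 genes or 0.0595% of all genes, while 3 of the 9 and 9.53% of all genes had an unadjusted p under 0.05. The effect at 7 days minus that at 3 days gave 0 of 9, against 1 gene or 0.00743% of all genes, with 1 of the 9 and 5.38% of all genes at an unadjusted p under 0.05. The member at that threshold was Efnb1, whose response was higher at 7 days by 0.31 ± 0.13 (SE, adjusted p = 0.896). Its pair differences ran from 0.05 to 0.25 at 7 days and from -0.43 to 0.08 at 3 days, so the days overlapped.

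**Figure D4:**
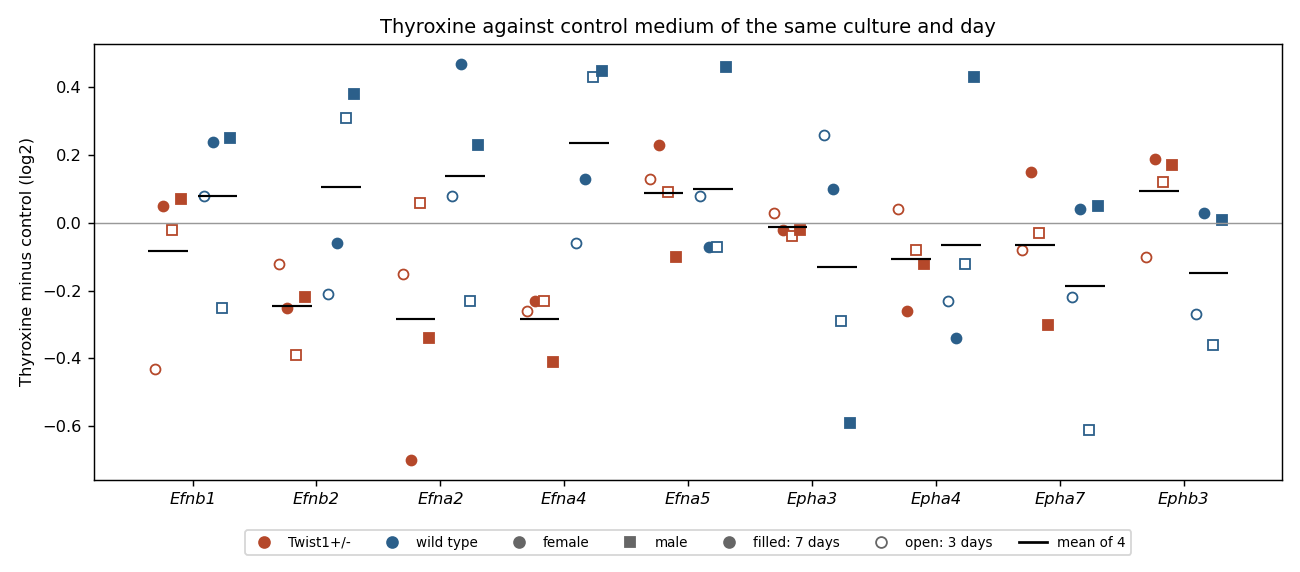
Difference of log2 level, thyroxine minus control medium, for arrays of the same culture and day, for the 9 genes. Red is Twist1+/- and blue wild type, circles are female and squares male, filled symbols are 7 days and open symbols 3 days, and the line is the mean of 4. For Efna4 the 4 Twist1+/- pairs lie between -0.41 and -0.23 and the wild-type pairs between -0.06 and 0.45.

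Of the further family genes, 0 of 9 passed for thyroxine. Efna1 was higher with thyroxine in 7 of 8 pairs, by 0.31 ± 0.09 (SE, adjusted p = 0.605, limma), and in 6 of 6 pairs outside the wild-type male culture, as were 1.26% of all genes. Its differences ran from 0.04 to 0.66 in the Twist1+/- pairs and from -0.09 to 0.40 in the wild-type pairs. Of the 34 signalling partners 0 passed, with a median of -0.02.

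The last question was whether the genotypes differed. No member passed over both media and days, and 0 of all genes (0%) did, with 2 of the 9 and 4.6% of all genes at an unadjusted p under 0.05. The fit used 1 within-culture correlation, 0.202, for all genes. Where a gene varied mainly between cultures, as Epha3 and Ephb3 did, the SE and p from this fit are too small. Epha3 was 7.38 ± 0.12 in Twist1+/- cells, with a range of 7.22 to 7.56 (SD, n = 8 arrays), while its wild-type levels split by culture as given above. The fitted difference of 0.88 ± 0.37 (SE, adjusted p = 0.937, limma) was -0.27 without the wild-type male culture (adjusted p = 0.176). Epha4 was higher in Twist1+/- cells by 0.39 ± 0.15 (adjusted p = 0.937, limma), and higher in 7 of 8 matched comparisons, a count not taken over all genes. Left without that culture, the Epha4 difference was 0.25 (adjusted p = 0.240).

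Ephb3 turned with the choice of cultures. Over all 4 cultures it was higher in Twist1+/- cells by 0.27 ± 0.22 (SE, adjusted p = 0.937, limma). Without the wild-type male culture it was lower in Twist1+/- cells, at -0.42 (adjusted p = 0.0363), which then rests on 1 wild-type culture. Efna4 (0.30), Epha7 (0.23), Efna5 (0.12), Efnb1 (0.11), Efna2 (0.10) and Efnb2 (-0.01) had an adjusted p from 0.937 to 0.997. When the wild-type male arrays were left out, Efna2 was -0.30, Efnb2 0.18, Efna5 0.29 and Efnb1 0, so Efna2 and Efnb2 also changed sign, with adjusted p from 0.155 to 1. The median of the 9 in the fit of all 4 cultures was 0.23, beside 0.02 for all genes. Without the wild-type male culture, Epha3, Ephb3 and Efna2 were lower in Twist1+/- cells. Genotype rests on 2 cultures against 2.

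Outside the list, Epha1 was higher in the Twist1+/- array of all 8 matched comparisons (equal sex, medium and day), as were 1.06% of all genes, with a difference of 0.38 ± 0.17 (SE, adjusted p = 0.937, limma). Epha2 was higher in Twist1+/- cells in 4 of 4 female comparisons, by 0.45 on average, and lower in 4 of 4 male comparisons, with a mean of -1.04, as were 2.95% of all genes in that pattern.

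The tested gene most like each of the 9 over the 16 arrays was found among 12363 others with a characterised name. Epha3 was most like Il6st, the shared receptor subunit of the interleukin 6 family, with a Pearson correlation of 0.983, or 0.789 over the 12 arrays outside the wild-type male culture. Ephb3 was most like Mmp23, a metalloproteinase gene (0.967 and 0.823), Epha4 like Tll1, a protease related to BMP1 (0.882 and 0.737), and Epha7 like Tbx18, a T-box transcription factor (0.862 and 0.808). Efnb2 was most like Acp1 (0.952 and 0.959), Efnb1 like Dnmbp (0.949 and 0.945), Efna4 like Lrrc49 (0.886 and 0.819), Efna2 like Scaper (0.880 and 0.771) and Efna5 like Adm (0.833 and 0.859). The arrays of a culture share their cells, so these correlations describe the 16 arrays and carry no p.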

How the data were processed

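The values are log2 levels per probe set, deposited by the authors after RMA with the Expression Console of Affymetrix (submitters' processing notes). RMA equalises the distributions of the arrays, so a change common to all genes is lost, and it compresses differences near background. Versions and genome build are not given in these sources. The platform annotation gave 1 symbol for 23521 of 41345 probe sets, several for 1814 and none for 16010, and 22180 genes were named. The 13453 genes tested had a mean level no lower than the 40th percentile of named probe sets (3.905). The members, gene lists and tests were chosen with earlier results of these data known, and the members were named whatever their values. Partners were named up to 4 per comparison past the threshold. Each member's most similar gene was that with the highest correlation.

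Tests used limma 3.58.1 in R 4.3.3 (lmFit, eBayes with an intensity trend, two-sided, adjusted p under 0.05 by Benjamini-Hochberg over all genes tested), with statmod 1.5.0. The thyroxine fit had the pair of arrays of 1 culture and day as a fixed block, with 4 residual degrees of freedom. Pairs were taken from the labels: a plate held both media of 1 culture and day. Across genes, male minus female differences in thyroxine and control medium had correlations of 0.119 (3 days) and 0.393 (7 days) in Twist1+/- cells, and of 0.771 (3 days) and 0.721 (7 days) in wild-type cells. The day and genotype fit had 8 group means and sex, with culture as a random block (correlation 0.202, 7 residual degrees of freedom). The culture fit had 4 cultures and the 4 combinations of day and medium (9 residual degrees of freedom). The fits were also run on simulated arrays with noise drawn separately for each array and no pair effects. A random culture effect was added for all comparisons but the culture test. Those runs check the code and not the spread assumed for these arrays. The number of arrays limits the precision.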

Additional observations from a re-analysis of the deposited data

Results flagged for a closer look

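The thyroxine minus control difference of Efna4 in Twist1+/- pairs was -0.41 in the male pair at 7 days, away from the other 3 pairs, which lay between -0.26 and -0.23. Its gap to the nearest pair was 0.833 of the whole range, just over Dixon's critical value for 4 values. It was 1 of 54 groups of 4 values tested, where chance flags about 1 in 20.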

How the results depend on the processing

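The number of the 9 genes past the threshold was the same under every setting tried for the 3 thyroxine comparisons and for the difference in day change between genotypes (0 each). For the day change in Twist1+/- cells it was 1, and became 0 with no filter on dim probe sets, 0 with no culture block, 2 with arrays centred on their median and 2 without the wild-type male culture. For wild-type cells it was 0, and became 1 with the culture as a fixed block and 2 without the wild-type male culture. For genotype it was 0, and became 1 without that culture, where Ephb3 turned to -0.42. For the culture test it was 4, and became 1 without that culture. Leaving out 1 pair or array at a time gave 0 to 0 for the 3 thyroxine comparisons, 0 to 1 for day in Twist1+/- and in wild-type cells, 0 to 0 for the difference in day change and for genotype, and 4 to 6 for culture. Centring moved the male Twist1+/- control array at 7 days by 0.14 and no other array by more than 0.07.

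Counts over all genes moved more. Thyroxine over all pairs called 13 genes, but 0 without the intensity trend, without the pair block or without the Twist1+/- pairs at 7 days, and 1 without the wild-type male culture. The genotype difference in response called 8, but 0 under each of those 4 settings, and 5 with the mean of all probe sets of a gene. The day difference in response called 1, and 0 to 2 under these settings. Without the wild-type male culture the day test called 3017 genes in place of 1969 in Twist1+/- cells and 1623 in place of 15 in wild-type cells, the genotype test 310 in place of 0 and the culture test 450 in place of 2653. In wild-type cells the day test called 8 with no filter and 8 with no culture block. Leaving out 1 pair or array gave 0 to 29 genes for thyroxine, 0 to 202 for the genotype difference in response, 0 to 17 for the day difference, 941 to 2181 for day in Twist1+/- cells, 4 to 531 in wild-type cells and 1774 to 2952 for culture. The cause was not tested.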
